A study of Mus musculus with 4 samples.

Results

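A set of 10 C-type lectin genes was followed across 4 libraries of mouse bone marrow-derived macrophages: Cd209a, Cd209b, Cd209d, Cd209f, Cd209g, Clec4d, Clec4e, Clec4n, Clec7a and Clec10a. They were taken by gene symbol as 10 of the 38087 genes in the deposited count table, each with a single row. The genes were chosen by family membership with the normalized counts and ratios of these libraries already known, so the levels and ratios below describe the libraries and carry no test. The macrophages were grown from C57BL/6 bone marrow of 6- to 8-week-old mice for 5 to 7 days in 30% L929-conditioned medium, whose colony-stimulating factor drives macrophage differentiation. Of the 4 groups, 3 received extracellular vesicles (EVs), membrane particles shed by cells, for 16 h. The EVs came from Beas2B, a human lung epithelial line, and carried miR-17 mimics (miR-17 EV), miR-93 mimics (miR-93 EV) or a scrambled RNA (control EV). The fourth group, labelled WT, is called unexposed. RNA of 4 biological replicates was pooled per group and sequenced as 1 library, so the spread between cultures was not measured and a difference between groups cannot be told apart from a difference between single libraries.

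C-type lectins are surface receptors that bind sugars, glycolipids and related ligands through a calcium-dependent or calcium-independent lectin fold, and macrophages use them to sense fungi, mycobacteria and damaged cells. Clec7a (Dectin-1) signals through its own tyrosine motif, whereas Clec4n (Dectin-2) and Clec4e (Mincle) signal through the adaptor encoded by Fcer1g, and these routes meet at the kinase Syk and the adaptor Card9. The Cd209 genes are the mouse relatives of human DC-SIGN, a mannose and fucose receptor, and lie side by side on chromosome 8.

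The main finding concerned a pair of neighbouring genes, Cd209f and Cd209g, which were lowest in control EV, intermediate in both mimic libraries and highest in unexposed cells. Cd209f had 109 reads with miR-17 EV, 87 with miR-93 EV, 36 with control EV and 166 in unexposed cells. Cd209g had 60 reads with miR-17 EV, 47 with miR-93 EV, 13 with control EV and 78 in unexposed cells. Their order over the 4 libraries was the same. The abundant lectins Clec4d, Clec4e, Clec4n and Clec7a differed by less than 2-fold between any of the libraries, and Cd209a, Cd209b and Cd209d had at most 3 reads in any of them.

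The sequences before the start sites of Cd209f and Cd209g are shown to describe how alike these genes are. Whether their reads could be told apart depends on the transcripts, which are compared further below. On the mm10 (GRCm38) genome Cd209f lies on chromosome 8 from 4102787 to 4105835 on the minus strand, and Cd209g from 4134733 to 4137707 on the plus strand, with 28897 bases between them. The 250 bases before each RefSeq start site (GRCm38.p6) were 90.5% identical over 231 aligned bases. They shared an unbroken run of 154 bases, and each held 1 match to the AP-1 motif TGANTCA, in capitals here, at 83 bases before the start of Cd209f and 97 before that of Cd209g.
Cd209f, chr8:4105765-4106014, minus strand: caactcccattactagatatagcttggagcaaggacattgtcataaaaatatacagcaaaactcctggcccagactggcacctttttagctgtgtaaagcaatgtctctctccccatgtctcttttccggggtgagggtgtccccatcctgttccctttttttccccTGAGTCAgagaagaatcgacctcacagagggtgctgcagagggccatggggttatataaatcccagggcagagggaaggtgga
Cd209g, chr8:4134486-4134735, plus strand: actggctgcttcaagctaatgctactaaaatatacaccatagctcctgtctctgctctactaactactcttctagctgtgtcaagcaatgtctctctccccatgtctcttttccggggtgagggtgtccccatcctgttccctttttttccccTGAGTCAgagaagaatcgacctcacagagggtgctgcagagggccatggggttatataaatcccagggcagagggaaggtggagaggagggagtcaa
This motif, searched on both strands, occurred in 6.75% of 32851 RefSeq promoters of this length. Promoters of 8 of the 10 genes were matched. The other motifs searched, on both strands, were GAGGAAG for PU.1 and other ETS factors (in 10.6% of promoters), TTGCNNAA for C/EBP (9.56%), TTCNNNGAA for STAT (7.02%), TGCTGAC for MAF factors (3.81%) and the NF-kB motif (3.90%). Among the genes followed here they matched once each before Clec4e and Cd209b (C/EBP, 66 and 68 bases before the start) and before Clec4d (PU.1 and ETS, 241 bases before the start). A match describes the letters in these windows and is not evidence of binding.

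The likeness extended into the transcripts. The longest GENCODE M21 coding transcripts of Cd209f (1186 bases) and Cd209g (1169 bases) were 91.5% identical over 1164 aligned bases and shared a run of 416 identical bases, from base 195 to 610 of the Cd209f transcript. Of the 50-base windows of Cd209f, 38.2% occurred unchanged in Cd209g, and 38.7% of those of Cd209g occurred in Cd209f. Reads in these stretches can be shared or split between the genes by an aligner, so the level of either gene alone is uncertain. Clec10a shared 10.6% of its windows with Mgl2, its near copy, and Clec4n shared 0.932% with 1 other gene. The remaining 6 genes shared none. No gene of the set overlapped another gene in the deposited table.

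The miRNAs carried by the EVs are shown because they are what sets the mimic libraries apart by design. The labels do not name the arm of the mimics. The mouse 5p arms in RefSeq (GRCm38.p6), with the seed (bases 2 to 8) in capitals, share that seed and are identical at 19 of 23 positions.
miR-17-5p: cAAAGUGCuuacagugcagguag
miR-93-5p: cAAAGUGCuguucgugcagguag

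Libraries held 22607247 reads in genes with miR-17 EV, 22247527 with miR-93 EV, 17815250 with control EV and 19705482 in unexposed cells. Counts were scaled with median-of-ratios size factors of 1.13, 1.10, 0.854 and 0.949 in the same order, and a scaled count is called a normalized count. The control EV library stood apart in aligned bases per read, with a median of 114 over well-covered genes, against 96.4 to 103 in the other libraries. Macrophage markers summed to 549170, 563970, 677156 and 591486 normalized counts in that order, with 6 of 7 listed markers in the table and each of those 6 above 20 normalized counts on average. Lyz2 made up most of each sum, at 475861, 491453, 596249 and 512117. Csf1r and Fcgr1 were also highest with control EV, whereas Cd68, Itgam and Mertk were highest in unexposed cells. Intervals given below are exact 95% intervals for counting error only. The labels name no molecular identifiers, so PCR copies cannot be separated from independent molecules.

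Cd209f was measured at 96.7 normalized counts with miR-17 EV (79.4 to 117), 78.8 with miR-93 EV (63.1 to 97.2), 42.2 with control EV (29.5 to 58.4) and 175 in unexposed cells (149 to 204). The counting intervals of control EV and of unexposed did not overlap with that of any other library, and those of the mimic libraries overlapped with each other. Cd209g was measured at 53.3 normalized counts with miR-17 EV (40.6 to 68.5), 42.6 with miR-93 EV (31.3 to 56.6), 15.2 with control EV (8.11 to 26.0) and 82.2 in unexposed cells (65.0 to 103). The control EV interval was below the others here as well, while those of miR-17 EV and unexposed overlapped. With 13 to 78 reads per library, Cd209g had the wider intervals of the pair relative to its level.

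**Figure D1:**
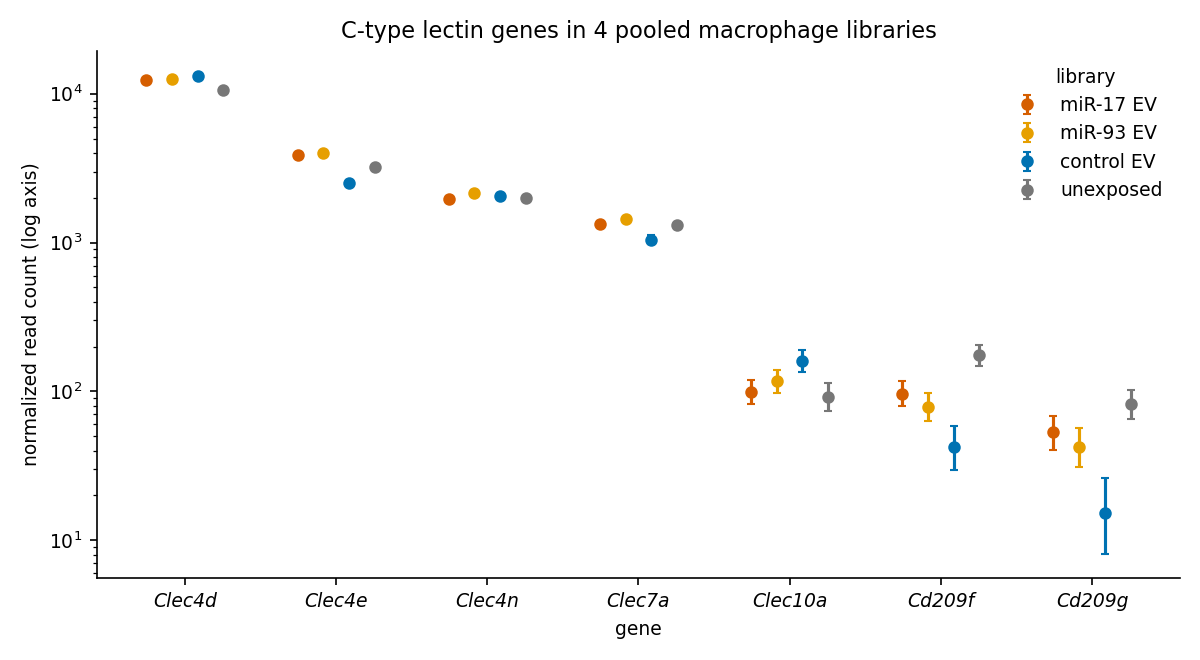
Normalized read count (log axis) of the 7 lectin genes averaging at least 20 normalized counts, in each of the 4 pooled libraries. Points are single libraries and bars are exact 95% Poisson intervals for counting error. Cd209f and Cd209g are lowest with control EV, at 42.2 and 15.2 normalized counts, and Clec10a is highest there, at 160.

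Ratios between libraries are given as the ratio of normalized counts with its exact conditional interval, and as a log2 ratio after adding 1 to both counts. A gene was called higher or lower where the log2 ratio was at least 1 in size, the counting interval excluded 1 and the pair averaged 20 or more normalized counts. Of the 10 genes, 7 reached the minimum of 20, and the 3 that did not were Cd209a, Cd209b and Cd209d. The calls are a rule of size and counting error between libraries, not a test of conditions. The 6 pairs share libraries, so their values are not independent of each other.

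In control EV over unexposed, 0 of the 7 genes were called higher and 2 were called lower, Cd209f and Cd209g, where 0.490% and 0.791% of 15294 genes were called higher and lower. The values of all 6 pairs were known when the genes were chosen, so nothing is read from these shares or those that follow. Cd209f had a ratio of 0.241 (0.163 to 0.347) and a log2 ratio of −2.03. Cd209g had a ratio of 0.185 (0.0944 to 0.336) and a log2 ratio of −2.36. With reads of both summed, control EV held 49 reads and unexposed 244, a ratio of 0.223 (0.161 to 0.304). In this sum, a shared read given to a single gene counts the same whichever gene it went to. How shared reads were counted is not known, and the sum does not correct for reads counted for both genes or left out. The authors' deposited table gives log2 fold changes of −2.22 for Cd209f and −2.28 for Cd209g in this pair. The median log2 ratio of the 7 genes was −0.32, and that of all genes compared was 0.00.

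In miR-17 EV over unexposed, 0 of the 7 genes were called in either direction, against 0.292% of 15396 genes called higher and 0.182% called lower. Cd209f had a log2 ratio of −0.85 and Cd209g one of −0.62, with ratios of 0.553 (0.430 to 0.708) and 0.648 (0.455 to 0.919). Both intervals excluded 1, and neither gene reached the 2-fold minimum. In miR-93 EV over unexposed, 0 genes were called higher and 1 was called lower, Cd209f, with a ratio of 0.450 (0.343 to 0.587) and a log2 ratio of −1.14. Cd209g had a log2 ratio of −0.93 there and missed the minimum. The shares over 15403 genes were 0.357% higher and 0.182% lower. With reads of both genes summed, the log2 ratios over unexposed were −0.77 with miR-17 EV and −1.08 with miR-93 EV.

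In miR-17 EV over control EV, Cd209f and Cd209g were called higher and 0 genes lower, where 1.05% of 15362 genes were called higher and 0.456% lower. The ratio was 2.29 (1.56 to 3.44) for Cd209f and 3.50 (1.90 to 6.95) for Cd209g, with log2 ratios of 1.18 and 1.74. In miR-93 EV over control EV, 1 gene was called higher, Cd209g, with a ratio of 2.80 (1.49 to 5.63) and a log2 ratio of 1.42, and 0 were called lower. Cd209f had a log2 ratio of 0.89 there, below the minimum. The shares over 15361 genes were 0.996% higher and 0.462% lower. Summed, the 2 genes gave log2 ratios of 1.37 with miR-17 EV and 1.07 with miR-93 EV, both over control EV. In miR-93 EV over miR-17 EV, 0 of the 7 genes were called, against 0.162% of 15465 genes called higher and 0.103% lower. The ratios of Cd209f and Cd209g in that pair, 0.814 (0.607 to 1.09) and 0.799 (0.534 to 1.19), had intervals that included 1.

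**Figure D2:**
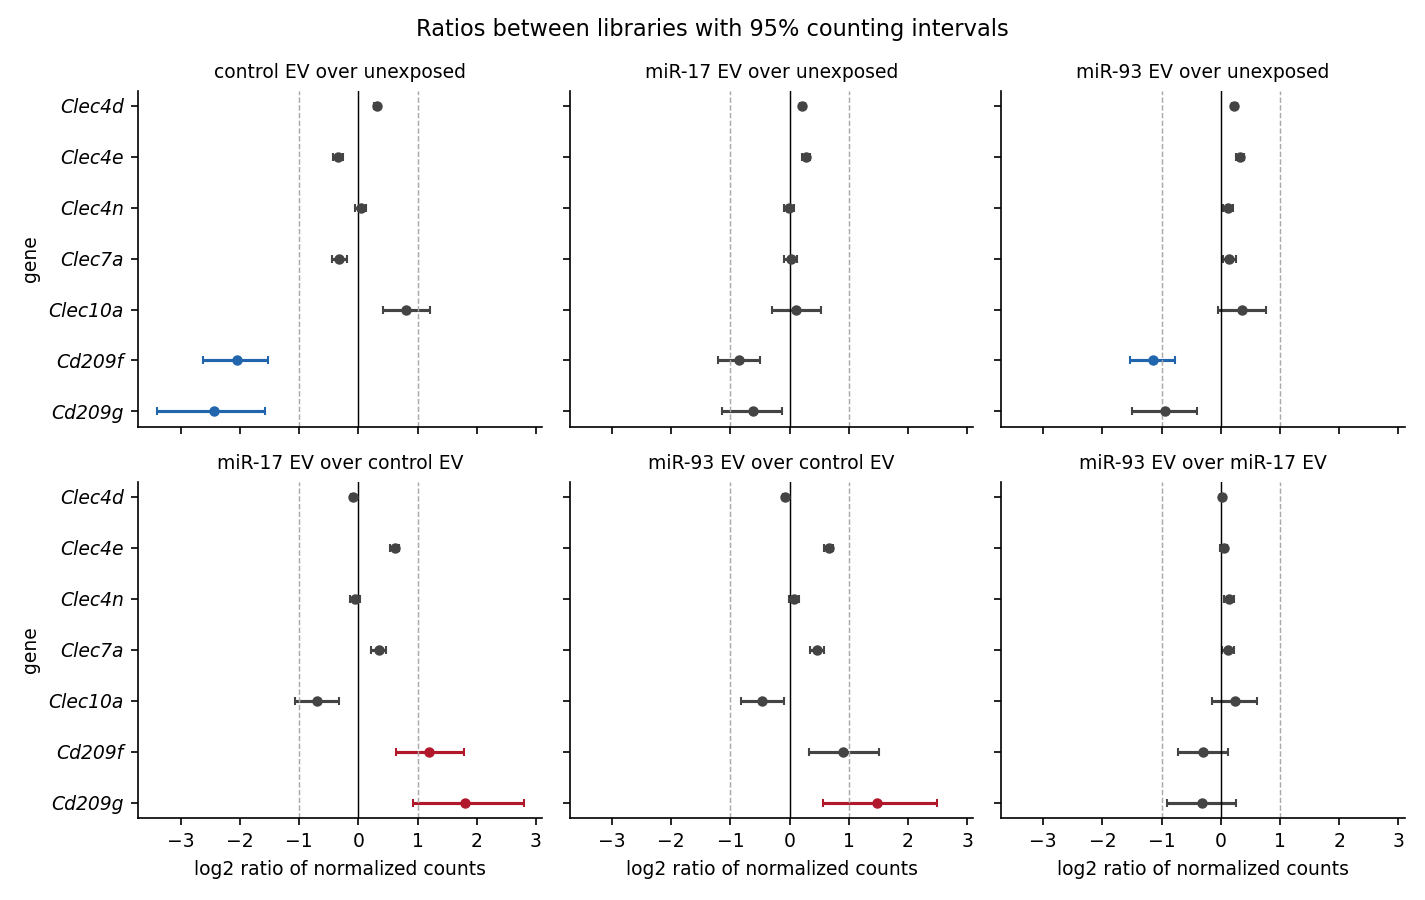
Log2 ratio of normalized counts (x axis) of 7 lectin genes in each of the 6 pairs of libraries, without the added 1, with 95% exact counting intervals. Blue and red mark genes called lower and higher, and dashed lines mark 2-fold. Only Cd209f and Cd209g carry a call in any panel.

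The control EV library was the low one for both genes and was also the one with the fewest reads and the most aligned bases per read. Average coverage per base, which the authors deposited beside the counts, takes read length into account. Scaled in the same way, the coverage of Cd209f was 3.03 with miR-17 EV, 2.52 with miR-93 EV, 1.24 with control EV and 6.03 in unexposed cells. That of Cd209g was 1.47, 1.20, 0.408 and 2.12 in the same libraries. The order of the libraries was therefore the same on this scale, which rests on the same reads and is not an independent measure. The number of Cd209f reads per Cd209g read was 1.82 with miR-17 EV, 1.85 with miR-93 EV, 2.77 with control EV (1.43 to 5.69) and 2.13 in unexposed cells (1.62 to 2.82), and these overlapped within counting error.

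Genes around the pair were compared as a local background. RP24-215A14.2, Gm16589, AC163287.1, 4932443L11Rik and Evi5l were the other genes of this stretch of chromosome 8 averaging at least 20 normalized counts. Their log2 ratios in control EV over unexposed were 0.30, 0.07, −0.15, −0.40 and −0.28, against −2.03 for Cd209f and −2.36 for Cd209g. In miR-17 EV over control EV they were −0.28, −0.24, −0.22, 0.26 and 0.18, against 1.18 and 1.74 for Cd209f and Cd209g. None of these neighbours was past 2-fold in either pair. RP24-215A14.2 and Gm16589 are typed as pseudogenes, AC163287.1 as a lincRNA and 4932443L11Rik as a processed transcript, and only Evi5l as protein coding. AC163287.1 lies within Gm16589 and 4932443L11Rik overlaps Evi5l, so these neighbours are not all separate from each other.

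**Figure D3:**
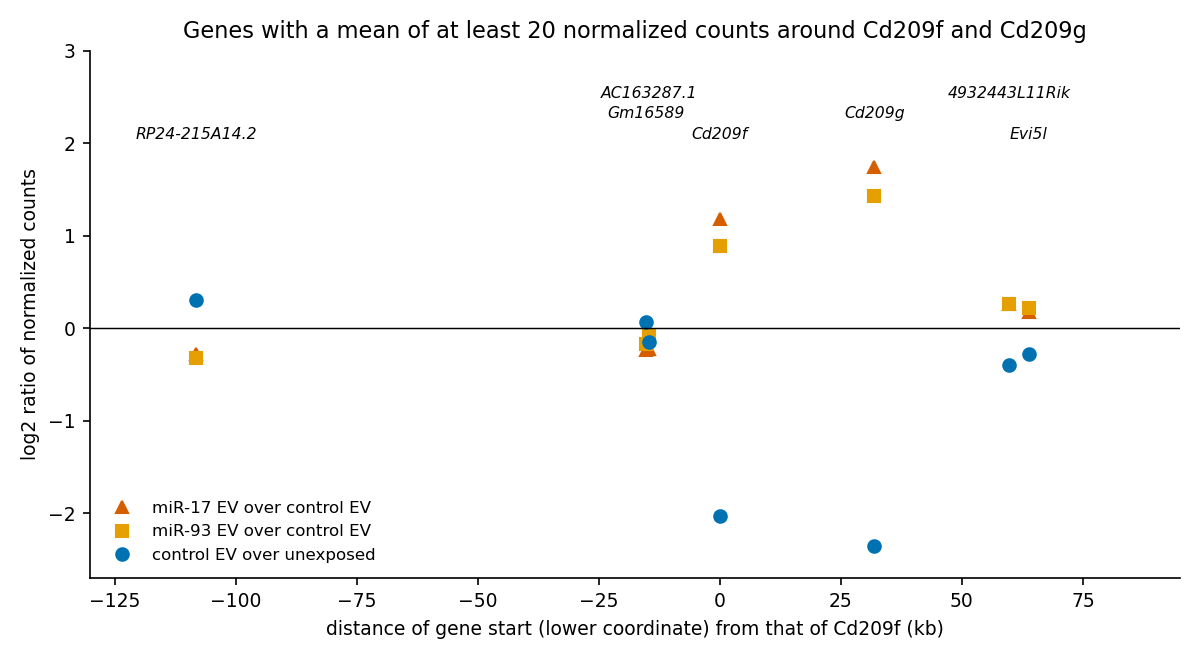
Log2 ratio of normalized counts (y axis) against distance from Cd209f in kb (x axis) for the 7 genes of this stretch averaging at least 20 normalized counts. Symbols give 3 pairs of libraries. Cd209f and Cd209g lie at −2.03 and −2.36 in control EV over unexposed, and the 5 neighbours lie between −0.40 and 0.30.

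The rest of the Cd209 cluster was close to unread in these macrophages. Cd209a, the mouse relative expressed on dendritic cells, had 0 reads with miR-17 EV, miR-93 EV and control EV, where the floor of 3 counts stands at 2.66, 2.72 and 3.51 normalized counts and the exact interval reaches 3.27, 3.34 and 4.32, and 1 read in unexposed cells. Cd209b (SIGN-R1), known from marginal zone macrophages of the spleen, had 3 reads with miR-17 EV, 3 with miR-93 EV, 2 with control EV and 0 in unexposed cells. These Cd209b reads covered few bases, with 13 to 16 aligned bases each. Cd209d had 3 reads with miR-17 EV, 0 with miR-93 EV, 0 with control EV and 1 in unexposed cells. No ratio is given for these 3 genes, since every value is at or under the floor of 3 counts. Cd209c, Cd209e and Fcer2a of the same cluster had at most 3 reads in any library and Clec4g had at most 4. Cd209h was not analysed here. Of the 9 cluster genes in the table, Cd209f and Cd209g were thus the 2 averaging at least 20 normalized counts. In all, the 5 Cd209 genes followed here summed to 155 normalized counts with miR-17 EV, 124 with miR-93 EV, 59.7 with control EV and 259 in unexposed cells.

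Markers of other cell types are given beside these values. Of 10 dendritic cell markers, 3 averaged past 20 normalized counts, Siglech had at most 2 reads, and the list summed to 360 normalized counts with miR-17 EV, 332 with miR-93 EV, 424 with control EV and 389 in unexposed cells. Of 6 markers of resident or marginal zone macrophages, 5 passed 20, Lyve1 had at most 3 reads, and the sum was 21319, 21755, 19519 and 22822 in the same libraries. Within that list Timd4, a phosphatidylserine receptor, was at 46.2, 62.5, 65.6 and 92.7 normalized counts. Osteoclast markers, 2 of 5 with a mean past 20, summed to 1789, 2049, 1429 and 2354. Both of these sums were lowest with control EV and highest in unexposed cells, and in each list the low sum with control EV came from 1 abundant marker. Marco was at 13608, 13442, 9671 and 13042 normalized counts in the same libraries, and the other 5 resident macrophage markers were not lowest with control EV. Acp5 was at 1474, 1649, 1025 and 1981, while Ctsk, the next osteoclast marker, was highest with control EV. Fibroblast markers, 2 of 5 with a mean past 20, summed to 87.9, 89.6, 71.4 and 99.1, with the same lowest and highest libraries. The sums of the other marker lists did not have both of these extremes. The part of cell makeup in the Cd209 values was not tested. In pooled bulk RNA, fewer cells of a type and less RNA per cell cannot be told apart.

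Among the followed receptors that signal through Syk, Clec4d (MCL), which pairs with Mincle, was the most abundant. Clec4d lies on chromosome 6 from 123262107 to 123275268 on the plus strand and ranked 174 of 38087 genes by mean normalized count. It was measured at 12347 normalized counts with miR-17 EV, 12466 with miR-93 EV, 13167 with control EV and 10636 in unexposed cells. All 3 EV libraries were above unexposed, with ratios of 1.16 with miR-17 EV (1.13 to 1.19), 1.17 with miR-93 EV (1.14 to 1.20) and 1.24 with control EV (1.21 to 1.27). These intervals cover counting error only, and differences of this size between single libraries cannot be told apart from differences between cultures.

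Clec4e (Mincle), a receptor for mycobacterial cord factor and for a protein released by dying cells, lies on the same chromosome from 123281789 to 123289870 on the minus strand. It had 3872 normalized counts with miR-17 EV, 3999 with miR-93 EV, 2526 with control EV and 3196 in unexposed cells. Control EV was the lowest library and both mimic libraries were the highest. The ratio over control EV was 1.53 with miR-17 EV (1.46 to 1.62) and 1.58 with miR-93 EV (1.503 to 1.67), and control EV over unexposed was 0.790 (0.748 to 0.836). The log2 ratios of 0.62, 0.66 and −0.34 were within 2-fold. As a share of the reads of Clec4d, Clec4e and Clec4n together, Clec4e took 21.3% with miR-17 EV, 21.5% with miR-93 EV, 14.2% with control EV and 20.2% in unexposed cells.

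Clec4n (Dectin-2), a receptor for fungal mannans, lies beside them from 123229843 to 123247021 on the plus strand. It had 1973 normalized counts with miR-17 EV, 2159 with miR-93 EV, 2048 with control EV and 1992 in unexposed cells. Its widest log2 difference between libraries was 0.13, the smallest range of the 7 genes above the minimum. Clec4n, Clec4d and Clec4e thus lie within 60.0 kb of each other. Clec4d was lowest in unexposed cells and Clec4e with control EV. For Clec4n, the ratios among control EV, miR-17 EV and unexposed had intervals that included 1, so its order there was within counting error.

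Clec7a (Dectin-1), the receptor for fungal beta-glucan, lies 6.17 Mb from Clec4e, from 129461591 to 129472777 on the minus strand, and is typed as a polymorphic pseudogene in the deposited table. It had 1325 normalized counts with miR-17 EV, 1442 with miR-93 EV, 1046 with control EV and 1305 in unexposed cells. Like Clec4e it was lowest with control EV, with a ratio over unexposed of 0.802 (0.735 to 0.874), and the ratios over control EV were 1.27 with miR-17 EV (1.17 to 1.38) and 1.38 with miR-93 EV (1.27 to 1.498).

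The sum of the neutrophil marker list was, like Clec4e and Clec7a, lowest with control EV, and S100a8 and Lcn2 made up most of it. Of 8 listed, 2 averaged past 20 normalized counts, S100a8 and Lcn2, while Ly6g, Elane and Ngp had at most 1 read in any library. S100a9 had at most 4 reads, and S100a9, Mpo and Camp were not lowest with control EV. The list summed to 1149 normalized counts with miR-17 EV, 1110 with miR-93 EV, 729 with control EV and 1004 in unexposed cells. Other marker sums were lowest with control EV too: monocyte (84.3), T and NK cell (1648), mast cell and basophil (59.7) and fibroblast (71.4). The resident macrophage and osteoclast sums given above were as well. Sums of the macrophage, dendritic cell, B cell, erythroid, epithelial and endothelial lists were not. The part of any of these cell types in the Clec4e and Clec7a values was not tested.

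Clec10a (MGL1), a receptor for galactose and N-acetylgalactosamine that is associated with alternatively activated macrophages, ran the other way. This gene, on chromosome 11 from 70156197 to 70170834 on the plus strand, had 112 reads with miR-17 EV, 129 with miR-93 EV, 137 with control EV and 87 in unexposed cells. Normalized, these were 99.4 (81.8 to 120), 117 (97.5 to 139), 160 (135 to 190) and 91.7 (73.4 to 113). Control EV was the highest library and its interval overlapped with that of miR-93 EV but not with those of miR-17 EV and unexposed. The ratio of control EV over unexposed was 1.75 (1.33 to 2.32), a log2 ratio of 0.80 that did not reach 2-fold, whereas the authors' deposited table gives a log2 fold change of 1.14 for it. The log2 ratios over control EV were −0.69 with miR-17 EV and −0.46 with miR-93 EV. The interval of the ratio was 0.478 to 0.801 with miR-17 EV and 0.568 to 0.9325 with miR-93 EV, so both excluded 1. Mgl2, which shares sequence with Clec10a, had 11 reads with miR-17 EV, 20 with miR-93 EV, 25 with control EV and 21 in unexposed cells. With both summed the ratio of control EV over unexposed was 1.67 (1.30 to 2.15).

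**Figure D4:**
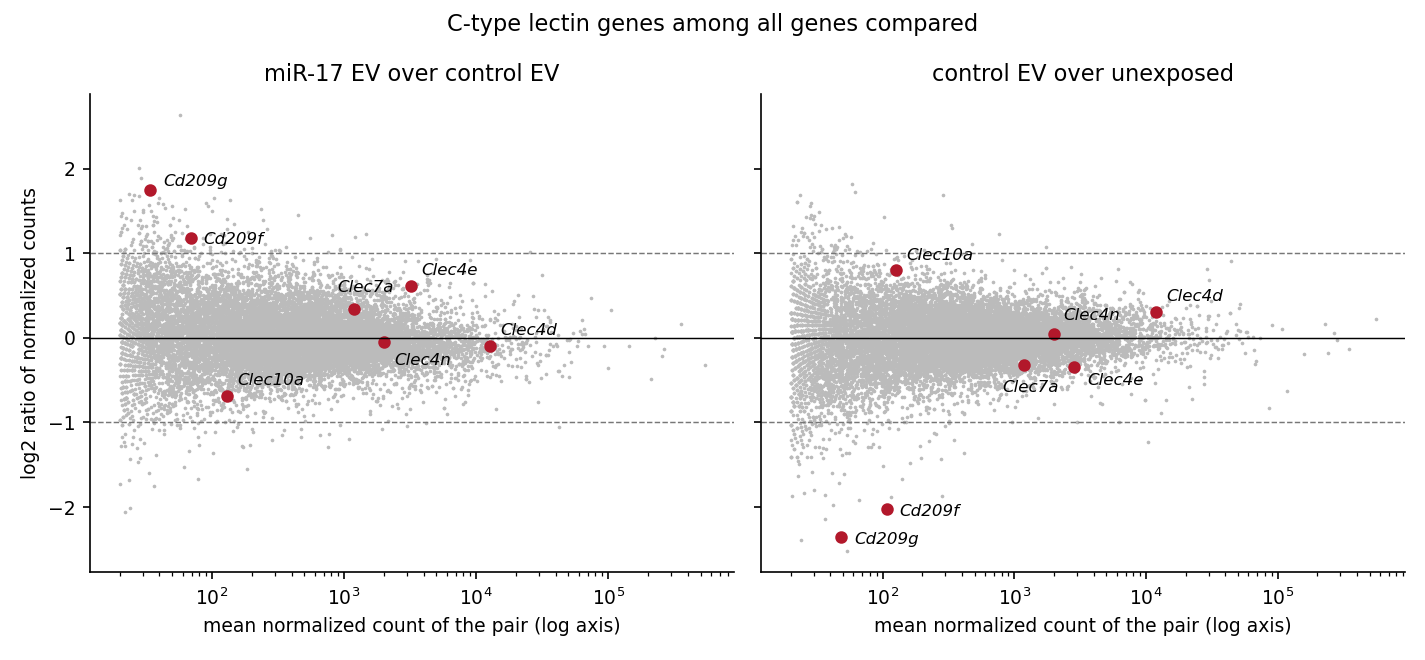
Log2 ratio (y axis) against mean normalized count of the pair (x axis, log axis) for all genes with a pair mean of at least 20, in miR-17 EV over control EV (left) and control EV over unexposed (right). Grey points are all genes and red points are the 7 lectin genes. Cd209f and Cd209g lie past 2-fold in both panels, below it at right and above it at left.

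Set per kb of the longest coding transcript, mean levels over the 4 libraries ran from Clec4d at 9187 normalized counts per kb through Clec4n at 1662, Clec4e at 1350 and Clec7a at 562 to Cd209f at 82.8, Clec10a at 50.2 and Cd209g at 41.3. Cd209d, Cd209b and Cd209a were at 1.01, 0.947 and 0.178 per kb, on counts of at most 3 reads. Clec4e had 1538 per kb with miR-17 EV, 1588 with miR-93 EV, 1003 with control EV and 1269 in unexposed cells, against 1605, 1757, 1667 and 1621 for Clec4n, so Clec4n was above Clec4e in each, least so with miR-17 EV. The 3 low genes changed places between libraries. In control EV, Clec10a was at 68.8, Cd209f at 35.6 and Cd209g at 13.02 per kb, and in unexposed cells they were at 39.3, 147 and 70.3.

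Other genes of the same families were set beside these. The Dectin-1 cluster list had 6 of 10 genes past the minimum of 20, and the Dectin-2 cluster list had 8 of 9. The list of other C-type lectins had 10 of 19. None of these was called in any of the 6 pairs. Beyond the followed genes, the widest in the Dectin-1 list was Clec1b (CLEC-2, a Syk-coupled platelet receptor), at 52.4 normalized counts with miR-17 EV, 77.0 with miR-93 EV, 38.7 with control EV and 66.4 in unexposed cells. Its log2 ratio in miR-93 EV over control EV was 0.98. Clec2g, Clec2i and Clec12a had ranges of 0.61, 0.58 and 0.40 on the log2 scale. In the Dectin-2 list Clec4b1, Clec4a4, Clec4a1 and Clec4a2 had ranges of 0.28, 0.22, 0.21 and 0.18. In the list of other lectins Thbd, Ly75, Pla2r1 and Clec5a had ranges of 0.43, 0.41, 0.39 and 0.38.

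Genes of C-type lectin signalling, 29 of the 30 listed with a value, gave 0 calls in any pair. Their median log2 ratio was 0.01 in control EV over unexposed, −0.10 in miR-17 EV over control EV and −0.16 in miR-93 EV over control EV, where the medians of all genes were 0.00, −0.02 and −0.02. The widest ranges belonged to Rasgrf1, a Ras exchange factor, at 0.84, Src, a kinase, at 0.41, Malt1, a protease of the Card9 complex, at 0.40, and Ptpn11, a phosphatase, at 0.39. Of 18 genes known as targets of this signalling, 12 passed 20 and 1 was called, Cxcl3, a neutrophil chemokine. It had 273 normalized counts with miR-17 EV, 296 with miR-93 EV, 130 with control EV and 216 in unexposed cells, with log2 ratios over control EV of 1.07 and 1.18 in the mimic libraries, pairs in which 1.05% and 0.996% of all genes compared were called higher. Ptgs2, Cxcl1 and Cxcl2 were not called, with ranges of 0.73, 0.63 and 0.63. Genes of alternative activation, 9 of 18 above the minimum, gave 0 calls, with the widest ranges beside that of Clec10a for Socs1 (0.80), Cd163 (0.37), Il4ra (0.34) and Stat6 (0.24).

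**Figure D5:**
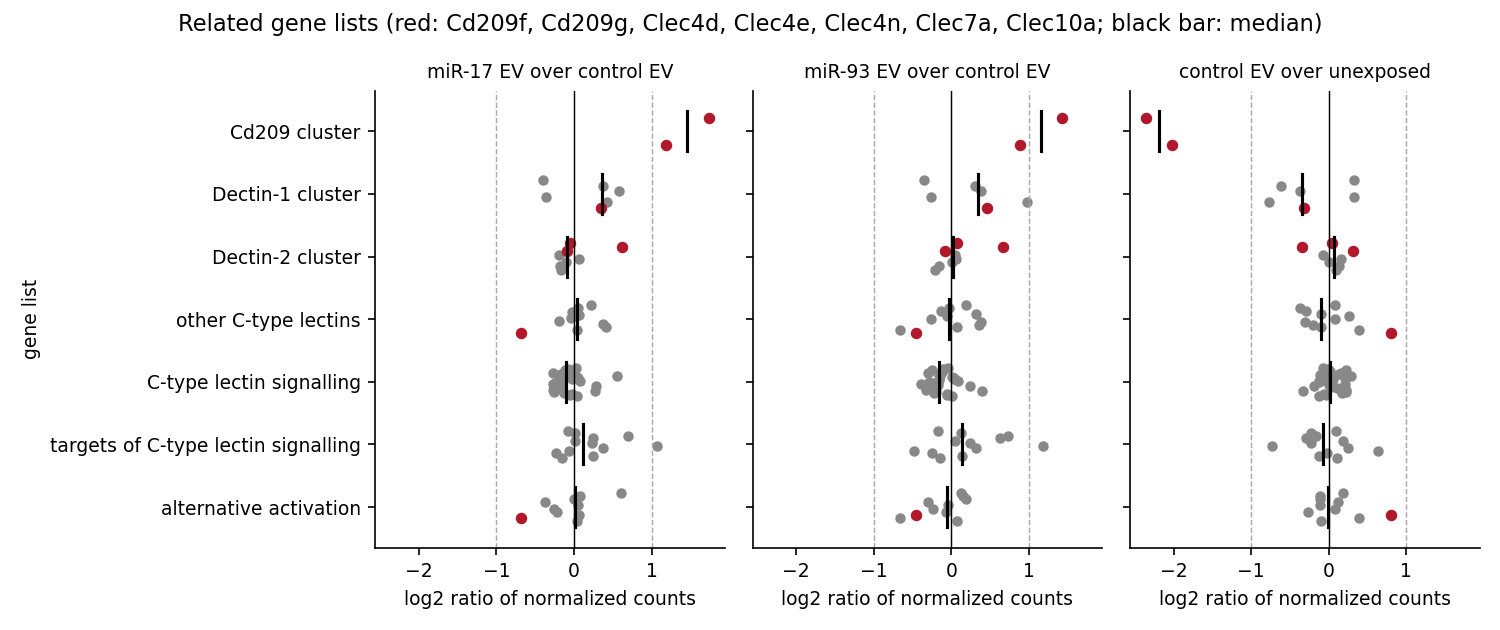
Log2 ratio of normalized counts (x axis) of each gene of the related lists (y axis) with a pair mean of at least 20, with miR-17 EV and miR-93 EV over control EV and control EV over unexposed. Red points are the followed lectin genes, grey points are other genes, black bars are list medians, and dashed lines mark 2-fold. The Cd209 cluster holds 2 such genes, and Cxcl3 is the one other gene beyond a dashed line.

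Genes of most similar pattern were sought among 11832 genes averaging at least 100 normalized counts, by the distance between log2 values centred over the 4 libraries. Unnamed gene models, pseudogenes and noncoding RNAs were passed over. For Cd209g, the Cd209 gene of widest range, 12 such genes were passed over, and the nearest named genes were Cobl (distance 0.833), Rplp1 (0.857), Hao1 (0.908), Kcna2 (0.918) and Carf (0.964). These 5 had ranges of at most 1.34 on the log2 scale, against 2.36 for Cd209g. Rplp1, a ribosomal protein, has pseudogene copies that can take its reads. For Clec10a, whose range of 0.80 was the widest of the 5 Clec genes followed here, 7 such genes were passed over, and the nearest named genes were Tm2d3 (0.0185), Polh (0.0480), Raet1d (0.0930), Slco2b1 (0.116) and Lca5 (0.125). Each distance rests on 4 libraries and 1 value per library.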

How the data were processed

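The deposited table gave, for each gene and library, the count of reads as whole numbers that were not normalized, and the average coverage per base, a signal not scaled to depth, per the file headers. GC content, in percent of bases, was also deposited by the authors per the file headers. Another deposited table held the authors' log2 values, and a further one their log2 and linear fold changes, with rows for 4 of the 10 genes. Per the submitters' processing notes the build was mm10 and DESeq was used, with no versions. Aligner, annotation and strandedness were not given in the sources used here.

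Counts were scaled with median-of-ratios size factors (numpy 2.4.6, pandas 2.3.3). Ratios have exact conditional (Clopper-Pearson) intervals and levels exact Poisson intervals at 95% (scipy 1.17.1). Calls needed 2-fold after a pseudocount of 1, a pair mean of 20 normalized counts and an interval excluding 1. The calling script was tested on simulated data. TMM factors came from edgeR 4.0.16. Transcripts and promoters came from GENCODE M21 and RefSeq, and alignments used Biopython 1.88.

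The genes and lists were chosen with earlier results of these data known. Named genes were the 10 members, up to 4 further genes per list with the widest range and a mean of at least 20, markers at or near 0, and the 5 nearest by pattern to 2 of the genes. Groups came from the transfection label. With 1 library per group there was no test. A search of the 10 genes for miR-17 family sites is not reported here.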

Additional observations from a re-analysis of the deposited data

How the results depend on the processing

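Scaling with edgeR's TMM factors or to total counts, average coverage, the authors' log2 values, other pseudocounts, minimums and folds were tried. Size factors without the control EV library and summed reads of Cd209f with Cd209g and of Clec10a with Mgl2 were chosen after seeing the data. Of 42 member ratios, none that was called changed sign. Of 291 alternative values, 15 lay outside the counting interval of the main value. Among ratios not called, the sign differed for 4 by the authors' values, 2 with total counts and 2 by coverage. It also differed for 1 with Clec10a and Mgl2 summed. Counts of genes called differed as follows. In control EV over unexposed, 2 were higher by the authors' values (Clec10a and Cd209b, which has at most 3 reads) and 1 at a fold of 1.5, against 0, and 1 was lower at a minimum of 100, against 2. In miR-17 EV over unexposed, 2 were lower at a fold of 1.5, against 0. In miR-93 EV over unexposed, 0 were lower by the authors' values and 2 at a fold of 1.5, against 1. In miR-17 EV over control EV, 0 were higher at a minimum of 100 and 3 at a fold of 1.5, against 2, and 1 was lower at a fold of 1.5, against 0. In miR-93 EV over control EV, 2 were higher by the authors' values and by coverage, 3 at a fold of 1.5 and 0 at a minimum of 100, against 1, and 1 was lower by the authors' values (Cd209b), against 0. A minimum of 100 removes Cd209g from every pair, and Cd209f from every pair without unexposed cells. It also removes Clec10a from miR-17 EV over unexposed. Genes added at a fold of 1.5 were Clec10a, Clec4e, Cd209f and Cd209g, with ratios between 1.5-fold and 2-fold. With miR-93 EV, the log2 ratio of Cd209f was −0.998 over unexposed by the authors' values. Over control EV it was 1.22 by the authors' values and 1.02 by coverage. Why the authors' values differ from the counts was not tested. Across these settings the log2 ratio in control EV over unexposed ran from −2.28 to −1.93 for Cd209f and from −2.40 to −2.11 for Cd209g. No paired analysis was possible because each group was 1 library. Depth limits Cd209f and Cd209g, with 13 to 166 reads per library.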
